A study of Homo sapiens with 16 samples.

Results

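A pair of subunits of one chromatin complex were depleted in the same cells and their gene expression was set side by side: MRGBP, a small non-catalytic subunit, and TIP60 (gene KAT5), the acetyltransferase. The comparison held 4 libraries of the 16 samples in the series, 2 with siRNA against MRGBP (siMRGBP) and 2 with siRNA against TIP60 (siTIP60). All 8808 genes of the deposited table of CPM (read counts scaled to the size of each library) were compared, after 5 repeated rows of 8813 had been removed. The cells were U2OS, a human osteosarcoma line obtained from ATCC, grown in DMEM with 10% FBS, and the RNA was poly(A)-selected. Both targeting siRNAs were Dharmacon smartpools, which are mixtures of siRNAs against one transcript. The common control was siRNA against luciferase (siLuc, 2 libraries). The labels name no further allele or agent in any of these groups. Samples of another cell line in the series were not analysed here.

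TIP60 is the catalytic core of a large complex that acetylates histones H4 and H2A and, through its p400 ATPase, places the variant H2A.Z in nucleosomes. Within this complex MRGBP binds MRG15, a chromodomain protein encoded by MORF4L1, or its relative MRGX, encoded by MORF4L2. The complex is known for transcriptional activation at promoters and for its part in the repair of DNA double-strand breaks.

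The effective library sizes recovered from the values were 57255783 and 73811517 reads for siMRGBP and 90293808 and 94890716 reads for siTIP60. The deposited sheet is named for significant genes, so every count below is a count among genes already selected. Whether both libraries of a group stem from different cultures is not stated in the labels. The p-values therefore measure the spread between these libraries, which may be technical. In bulk RNA, fewer cells in a state and less RNA per cell cannot be told apart. The labels describe U2OS as epithelial cells from osteosarcoma. In the siLuc libraries the bone matrix gene COL1A1 stood at 2334.5 and 1811.5 CPM, the osteoblast regulator RUNX2 at 44.5 and 45.3 CPM and the epithelial keratin KRT18 at 91.8 and 76.1 CPM.

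Within the comparison siTIP60 replicate 1 stood apart in a set of genes. In it, 19 genes were more than 2-fold above replicate 2 (on the log2(CPM + 1) scale) and none was below it, against 4 and 0 genes for siMRGBP. The siLuc libraries, which all contrasts with the control use, differed in more genes. There 11 genes were over 2-fold higher in replicate 1 and 59 in replicate 2, and 0 of them were in the leukocyte list that follows. The median absolute difference between replicates was 0.12 in siLuc, 0.13 in siMRGBP and 0.074 in siTIP60. Of a leukocyte list drawn up after these values were seen, 25 of 34 genes were measured and 24 of the 25 were higher in replicate 1 than in replicate 2 of siTIP60. Their summed level was 74.6 CPM in siTIP60 replicate 1, 30.3 CPM in replicate 2, 15.7 and 14.7 CPM in siMRGBP, and 19.4 and 21.1 CPM in siLuc. The neutrophil receptor gene CXCR1 stood at 1.10 CPM in siTIP60 replicate 1 and at 0 in both siMRGBP libraries, both siLuc libraries and siTIP60 replicate 2. HBA1, a haemoglobin chain, stood at 6.74 CPM in that library and at 0.0422 CPM in replicate 2. Ribosomal RNA moved with it too: the entry RNA28S5 had 525 CPM in siTIP60 replicate 1, 91.3 CPM in replicate 2 and 11.6 and 21.7 CPM in siMRGBP. Of the 25 leukocyte genes 22 were called higher in siTIP60 (adjusted p under 0.05, limma over all genes, a call that 39.6% of all 8808 genes received), and 8 when replicate 1 was left out. No leukocyte gene was called higher in siMRGBP. The part of this signal in the results below was not tested. Counts below are given without this library where that moved them by over 1.5 times.

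Each siRNA lowered its own target. KAT5 stood at 19.7 and 18.8 CPM in siLuc, 17.9 and 16.8 CPM in siMRGBP and 2.48 and 2.80 CPM in siTIP60. MRGBP stood at 91.4 and 115 CPM in siLuc, 7.96 and 7.82 CPM in siMRGBP and 45.1 and 44.3 CPM in siTIP60. MRGBP also fell with TIP60 depletion (siTIP60 minus siLuc -1.18 on the log2(CPM + 1) scale, adjusted p = 5.39e-08), whereas KAT5 in siMRGBP did not pass the test (siMRGBP minus siLuc -0.14, adjusted p = 0.104). These are separate contrasts with the same control, and the difference between the cross-effects was not tested. Both groups were apart in all 4 libraries for each target. Directly compared, KAT5 was higher in siMRGBP by 2.33 ± 0.07 (log2 difference ± SE, n = 2 per group, adjusted p = 6.90e-11) and MRGBP was lower by 2.36 ± 0.09 (adjusted p = 2.20e-10).

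Of 22 listed subunits of the complex 9 were in the table, and 6 were higher in siMRGBP (34.8% of all genes were), 1 was lower (39.6%) and 2 did not pass the test. KAT5 is among the 6 higher and MRGBP is the 1 lower. Both are the siRNA targets, so the direction of these 2 calls follows from the design. For BRD8, the bromodomain subunit, the siMRGBP and siTIP60 libraries overlapped. It stood at 80.0 and 73.5 CPM in siLuc, 48.1 and 47.1 CPM in siMRGBP and 44.3 and 50.4 CPM in siTIP60, and the direct difference had a 95% interval of -0.15 to 0.17 on the log2 scale. The MRG proteins differed. MORF4L1 had 292 and 275 CPM in siMRGBP against 202 and 206 CPM in siTIP60 (0.47 ± 0.07, adjusted p = 3.57e-05), and MORF4L2 206 and 175 CPM against 141 and 138 CPM (0.44 ± 0.09, adjusted p = 8.98e-04). MBTD1, a histone-reader subunit, had 17.2 and 19.1 CPM against 11.0 and 11.8 CPM (0.63 ± 0.07, adjusted p = 4.03e-06). The actin-related subunit ACTL6A did not pass the test either (-0.02 ± 0.06). The remaining calls were small: 0.38 for the YEATS-domain subunit YEATS4 and 0.21 for the ATPase RUVBL1, which lost its call without siTIP60 replicate 2 (adjusted p = 0.0597).

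**Figure D1:**
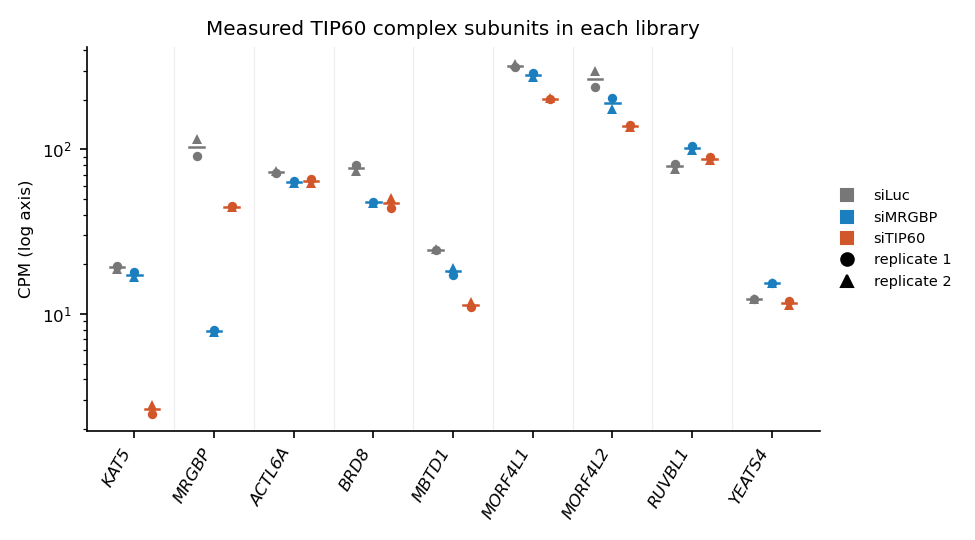
CPM on a log axis of the 9 measured TIP60 complex subunits in the 2 siLuc, 2 siMRGBP and 2 siTIP60 libraries, with circles for replicate 1, triangles for replicate 2 and a bar at each group mean. KAT5 is low in siTIP60 at 2.48 and 2.80 CPM, and MRGBP is lowest in siMRGBP and intermediate in siTIP60.

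Most genes of the table differed between the knockdowns. Of the 8808 genes 6554 (74.4%) differed between siMRGBP and siTIP60 at an adjusted p under 0.05, with 3067 (34.8%) higher in siMRGBP and 3487 (39.6%) higher in siTIP60. These shares are the background for all counts below, beside a median difference over all genes of -0.04. They are not matched for level. At least 2-fold apart were 686 genes (7.79%) higher in siMRGBP and 731 (8.3%) higher in siTIP60. Against siLuc 65.0% of genes passed the threshold in siMRGBP (32.1% rose and 32.9% fell) and 78.8% in siTIP60 (41.1% rose and 37.7% fell); both contrasts use the same siLuc libraries. The median absolute change was 0.35 in siMRGBP and 0.56 in siTIP60.

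Which side a gene fell on went with its level. Among 1759 genes with a mean of at least 50 CPM over the 12 libraries, 1062 were higher in siMRGBP and 458 higher in siTIP60, with a median difference of 0.39. Among 1478 genes under 1 CPM the counts were 231 and 642, and from 1 to 5 CPM 541 and 1080 of 2415 genes. From 5 to 50 CPM the sides were close, 1233 and 1307 of 3156 genes. With trimmed-mean (TMM) scaling the counts were 1122 and 413 at 50 CPM and above, 253 and 599 under 1 CPM, and 1345 and 1201 from 5 to 50 CPM, where the larger side turned. Depth moves with the groups, since both siTIP60 libraries were deeper, and its part in this pattern was not tested. No gene list was set against genes of like level. A list of highly expressed genes can therefore exceed the share over all genes through its level alone.

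**Figure D2:**
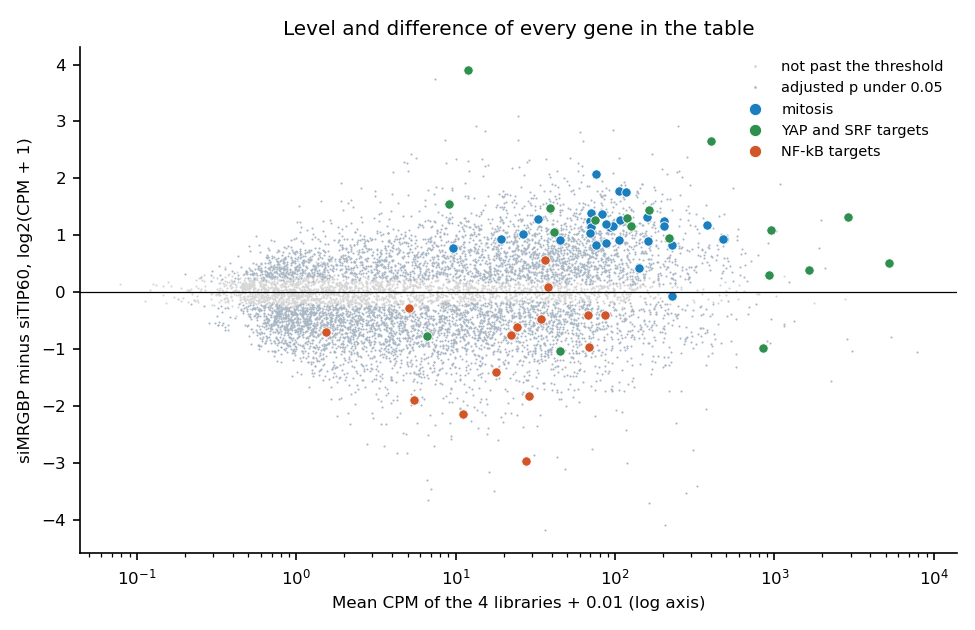
Difference between siMRGBP and siTIP60 in log2(CPM + 1) for each of 8793 genes with unaltered names (vertical axis) against the mean CPM of the 4 libraries plus 0.01 (log axis), with 3 gene lists in colour. All mitosis genes but FOXM1 and most YAP and SRF targets lie above 0 and NF-kB targets mostly below it, while the grey cloud spreads on both sides.

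Mitosis genes were lower in siTIP60 than in siMRGBP almost throughout. Of 30 measured mitosis genes 29 were higher in siMRGBP than in siTIP60 and none was lower, with a median difference of 1.14. Against siLuc 22 of them fell in siMRGBP (median -0.49) and all 30 fell in siTIP60 (median -1.52). Their summed level was 7783 and 7699.5 CPM in siLuc, 5351 and 5654 CPM in siMRGBP and 2562 and 2828 CPM in siTIP60. Without siTIP60 replicate 1 the count was again 29.

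CCNA2, cyclin A of S phase and mitotic entry, had 242 and 253 CPM in siLuc, 171 and 159 CPM in siMRGBP and 47.3 and 47.8 CPM in siTIP60. No library of siTIP60 overlapped siMRGBP, and the difference was 1.77 ± 0.06 (adjusted p = 1.27e-10). CDC20, the activator of the anaphase-promoting complex, had 366 and 385 CPM in siLuc, 240 and 213 CPM in siMRGBP and 89.0 and 91.0 CPM in siTIP60 (1.32 ± 0.07, adjusted p = 4.33e-09). Other large differences were in PRC1, the spindle midzone bundler (2.07 ± 0.11), NUSAP1, a spindle-associated protein (1.76 ± 0.08), and the mitotic kinases AURKA (1.37 ± 0.06), AURKB (1.28 ± 0.06) and PLK1 (1.27 ± 0.06). FOXM1, a transcription factor that drives many of these genes, was the exception. It stood at 658 and 701 CPM in siLuc, 224 and 220 CPM in siMRGBP and 228 and 236 CPM in siTIP60 (direct difference -0.06 ± 0.06, 95% interval -0.20 to 0.07, adjusted p = 0.371).

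Promoters of such genes are known for CCAAT boxes, bound by NF-Y, and for the cell cycle homology region with the core TTTGAA. The promoters of CCNA2 and CDC20 are shown because they belong to the genes described above, from RefSeq (GRCh38.p14, 250 bases before to 50 after the annotated start), 5' to 3' on the gene's strand. CCNA2 lies at chr4:121823834-121824133 on the minus strand and CDC20 at chr1:43358731-43359030 on the plus strand. Capitals mark CCAAT and TTTGAA on either strand.
CCNA2: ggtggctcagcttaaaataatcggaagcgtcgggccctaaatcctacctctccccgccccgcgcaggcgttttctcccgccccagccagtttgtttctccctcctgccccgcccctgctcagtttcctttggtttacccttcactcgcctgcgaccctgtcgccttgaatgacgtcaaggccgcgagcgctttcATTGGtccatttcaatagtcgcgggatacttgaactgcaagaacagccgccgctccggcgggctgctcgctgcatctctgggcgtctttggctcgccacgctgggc
CDC20: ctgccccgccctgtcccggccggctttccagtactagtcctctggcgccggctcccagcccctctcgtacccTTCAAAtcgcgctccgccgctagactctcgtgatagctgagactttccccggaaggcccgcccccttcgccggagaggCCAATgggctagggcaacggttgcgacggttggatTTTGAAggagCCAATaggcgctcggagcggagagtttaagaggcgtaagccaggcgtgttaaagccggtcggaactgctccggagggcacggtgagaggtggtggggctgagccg
In the window of CCNA2 a CCAAT box lay 56 bases before the start, on the opposite strand, and the exact TTTGAA was not found. In that of CDC20 CCAAT lay 100 and 55 bases before the start and TTTGAA 178 and 65 bases before it. Over both strands, CCAAT was found in 75.0% of the 24 mitosis promoters matched, 36.7% of 5444 promoters of genes tested and 35.7% of all 27305 promoters. TTTGAA was found in 58.3%, 11.2% and 15.4%. These are matches of letters and not shown to be bound. The list was drawn from textbook mitosis genes, whose promoters are known for these motifs, so high shares are partly built in.

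DNA replication genes followed the same order. Of 34 measured members 32 were higher in siMRGBP and 2 were lower, with a median difference of 0.77. RRM2, the ribonucleotide reductase subunit that supplies deoxynucleotides, had 446 and 452 CPM in siLuc, 329 and 334 CPM in siMRGBP and 120 and 123 CPM in siTIP60 (1.44 ± 0.06, adjusted p = 4.64e-10). Thymidylate synthase TYMS was higher in siMRGBP by 1.57 ± 0.07 and the helicase subunit MCM4 by 1.18 ± 0.06. GINS1, a subunit of the replicative helicase complex, moved in opposite directions: 52.8 and 56.4 CPM in siLuc, 72.8 and 64.6 CPM in siMRGBP and 20.4 and 19.6 CPM in siTIP60, a rise against siLuc of 0.33 (adjusted p = 1.0e-03) and a fall of 1.40 (adjusted p = 1.1e-09). E2F2, an activator of S phase genes, was 13.7 and 17.0 CPM in siMRGBP and 3.96 and 3.47 CPM in siTIP60 (1.79 ± 0.11). The 2 members lower in siMRGBP, CDC45 (-0.16) and LIG1 (-0.19), lost their calls without siTIP60 replicate 1, without siTIP60 replicate 2 or without siMRGBP replicate 1, and also with TMM scaling.

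Homologous recombination genes gave 12 of 13 higher in siMRGBP and 1 lower, with a median of 0.73. BRCA1 had 81.5 and 78.4 CPM in siLuc, 53.1 and 62.1 CPM in siMRGBP and 33.0 and 40.0 CPM in siTIP60 (0.65 ± 0.10, adjusted p = 5.45e-05). The helicase gene BRIP1, at 76.0 and 75.3 CPM in siLuc, rose in siMRGBP to 91.6 and 90.9 CPM and fell in siTIP60 to 29.9 and 35.3 CPM (1.46 ± 0.09). RAD51AP1, a cofactor of strand exchange, was the lower one: 52.8 and 57.6 CPM in siLuc, 12.4 and 12.6 CPM in siMRGBP and 15.4 and 16.4 CPM in siTIP60 (-0.33 ± 0.07, adjusted p = 1.19e-03).

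Most measured targets of YAP and SRF stood higher in siMRGBP. The list of YAP and SRF targets holds genes switched on by the mechanosensitive coactivator YAP or by serum response factor with its actin-sensing partners. Of 18 measured members 15 were higher in siMRGBP and 3 lower, with a median of 1.13. Against siLuc 16 rose and none fell in siMRGBP (median 1.195), and 9 rose and 4 fell in siTIP60 (median 0.35). ACTG2, smooth muscle gamma-actin, had 1.28 and 1.48 CPM in siLuc, 25.8 and 21.0 CPM in siMRGBP and 0.565 and 0.685 CPM in siTIP60. It rose in one knockdown and fell in the other, and the direct difference was 3.90 ± 0.11 (adjusted p = 5.33e-11), 37.5-fold on mean CPM. The factor gene SRF itself had 185 and 166 CPM in siMRGBP against 78.0 and 77.0 CPM in siTIP60 and 78.4 and 70.2 CPM in siLuc (1.17 ± 0.07, adjusted p = 1.01e-08).

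Cytoplasmic actin ACTG1 gave the largest CPM difference towards siMRGBP among genes at least 2-fold apart, with 4113 and 4119 CPM in siMRGBP, 1636 and 1641 CPM in siTIP60 and 1272 and 1123 CPM in siLuc (1.33 ± 0.08). Tropomyosin TPM4 had 737 and 656 CPM against 104 and 114 CPM (2.66 ± 0.07), calponin CNN1 60.9 and 55.1 CPM against 20.6 and 19.9 CPM (1.47 ± 0.07), and the YAP target CYR61 1463 and 1117 CPM against 604 and 595 CPM (1.09 ± 0.10). The 3 members higher in siTIP60 were ANKRD1, LATS2 and ACTA2. ANKRD1, often read as a YAP reporter, rose in both: 125 and 117 CPM in siLuc, 580 and 553 CPM in siMRGBP and 1094 and 1145 CPM in siTIP60 (-0.98 ± 0.07, adjusted p = 7.10e-08). LATS2, a kinase that restrains YAP, had 26.9 and 31.5 CPM in siMRGBP and 60.6 and 60.2 CPM in siTIP60 (-1.03 ± 0.08). Of the genes named by the size of their difference, the actin capping protein CAPZA1 had 438 and 501 CPM in siLuc, 465 and 416 CPM in siMRGBP and 55.4 and 59.7 CPM in siTIP60 (2.91 ± 0.08), and CAP2, a regulator of actin turnover, 110 and 104 CPM in siMRGBP against 14.0 and 14.9 CPM in siTIP60 (2.81 ± 0.07).

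The promoter of ACTG2 is shown for the CArG boxes, the sequence that serum response factor binds, which are printed in capitals. It comes from RefSeq (GRCh38.p14) at chr2:73892758-73893057 on the plus strand.
ACTG2: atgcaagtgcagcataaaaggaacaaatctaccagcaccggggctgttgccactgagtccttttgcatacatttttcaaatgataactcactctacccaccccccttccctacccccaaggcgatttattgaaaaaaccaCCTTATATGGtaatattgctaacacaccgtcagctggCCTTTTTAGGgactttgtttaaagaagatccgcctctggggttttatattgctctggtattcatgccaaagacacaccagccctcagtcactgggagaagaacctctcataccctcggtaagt
The 2 CArG boxes lay 110 and 73 bases before the start. A CArG box was found in 40.0% of the 15 promoters of the list that were matched, in 1.41% of 5444 promoters of genes tested and in 1.29% of all promoters. The list was drawn from known targets, so a high share is built into it.

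NF-kB targets stood higher in siTIP60. Of 15 measured members 13 were higher in siTIP60, 1 was higher in siMRGBP (2 without siMRGBP replicate 2) and 1 did not pass the test, with a median of -0.70. Against siLuc 14 rose and none fell in either knockdown, with medians of 0.75 in siMRGBP and 1.36 in siTIP60. IL1A, an inflammatory cytokine, had 1.03 and 1.00 CPM in siLuc, 6.64 and 4.498 CPM in siMRGBP and 49.3 and 50.1 CPM in siTIP60 (-2.97 ± 0.13, adjusted p = 1.07e-09). CSF2, the cytokine GM-CSF, had 0.417 and 0.513 CPM in siLuc, 4.10 and 2.91 CPM in siMRGBP and 19.1 and 18.3 CPM in siTIP60 (-2.14 ± 0.11). The chemokine genes CCL20 (-1.89 ± 0.11) and IL8 (-1.82 ± 0.21) followed the same order.

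The 2 members outside that order both encode inhibitors of the pathway. TNFAIP3, which encodes the feedback inhibitor A20, had 11.9 and 10.7 CPM in siLuc, 46.9 and 32.1 CPM in siMRGBP and 36.02 and 36.97 CPM in siTIP60, and its direct difference was 0.09 ± 0.13 (adjusted p = 0.543). NFKBIA, the inhibitor that holds NF-kB in the cytoplasm, was the member higher in siMRGBP: 30.1 and 30.8 CPM in siLuc, 49.6 and 38.1 CPM in siMRGBP and 30.8 and 27.3 CPM in siTIP60 (0.57 ± 0.10, adjusted p = 2.64e-04). BIRC3, a survival gene and ubiquitin ligase of the pathway, rose in both, with 9.49 and 11.1 CPM in siLuc, 53.4 and 39.7 CPM in siMRGBP and 84.9 and 97.4 CPM in siTIP60 (-0.97 ± 0.12, adjusted p = 1.36e-05). Its promoter is printed for its NF-kB sites, in capitals, from RefSeq (GRCh38.p14) at chr11:102317234-102317533 on the plus strand.
BIRC3: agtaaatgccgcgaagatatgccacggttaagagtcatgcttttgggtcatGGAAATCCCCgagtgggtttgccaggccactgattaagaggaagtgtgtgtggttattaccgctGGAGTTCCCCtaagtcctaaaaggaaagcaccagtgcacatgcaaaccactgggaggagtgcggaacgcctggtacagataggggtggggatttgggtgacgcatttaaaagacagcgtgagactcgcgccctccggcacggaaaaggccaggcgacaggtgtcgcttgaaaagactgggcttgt
The 2 sites lay 199 and 135 bases before the start, both on the opposite strand. An NF-kB site was found in 38.5% of the 13 matched promoters of the list, 13.0% of those of genes tested and 10.8% of all promoters, and this list too was drawn from known targets.

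**Figure D3:**
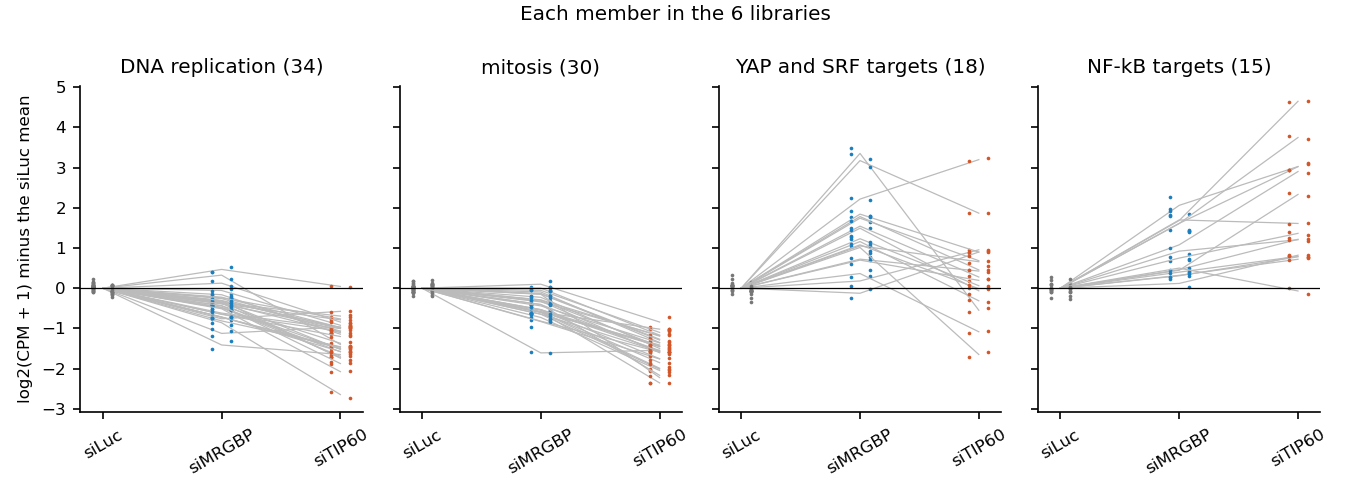
Level of each member of 4 gene lists relative to its siLuc mean, in log2(CPM + 1), with 1 point per library and a line through the group means. Replication and mitosis genes mostly step down from siLuc to siMRGBP to siTIP60, YAP and SRF targets mostly peak in siMRGBP, and NF-kB targets mostly climb towards siTIP60.

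Heat shock protein genes were lower in siTIP60. All 7 measured chaperone genes were higher in siMRGBP, with a median of 0.87 and no overlap of the 2 groups for any of them. Over all genes the groups did not overlap in 86.1%. None passed the test in siMRGBP against siLuc and all 7 fell in siTIP60. HSPA8, the constitutive cytosolic chaperone, had 2262 and 2181 CPM in siLuc, 2471 and 2347 CPM in siMRGBP and 1340.2 and 1489.6 CPM in siTIP60 (0.77 ± 0.10, adjusted p = 1.16e-05). HSPA1A, the inducible one, had 90.4 and 79.9 CPM in siMRGBP and 24.4 and 25.9 CPM in siTIP60 (1.72 ± 0.13). It shares most of its sequence with HSPA1B, so reads could be split between them.

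Genes of the amino acid stress response, driven by ATF4, and of the unfolded protein response divided. Of 18 measured members 13 were higher in siTIP60, 3 were higher in siMRGBP and 2 did not pass the test, with a median of -0.69. ASNS, asparagine synthetase, had 57.5 and 69.0 CPM in siLuc, 117 and 122 CPM in siMRGBP and 302 and 280 CPM in siTIP60 (-1.28 ± 0.08, adjusted p = 1.44e-08). CHAC1, a glutathione-degrading enzyme, rose in both and was lower in siMRGBP by 1.205 ± 0.07. HERPUD1, of endoplasmic reticulum protein disposal, had 48.2 and 49.4 CPM in siMRGBP and 135 and 131 CPM in siTIP60 (-1.43 ± 0.06). DDIT4, a stress-induced inhibitor of mTOR signalling, fell in siMRGBP to 24.0 and 30.6 CPM and rose in siTIP60 to 94.5 and 86.3 CPM, from 46.6 and 36.2 CPM in siLuc (-1.70 ± 0.12). The members higher in siMRGBP were ATF5 (0.31) and the endoplasmic reticulum chaperones HSP90B1 (0.96) and HSPA5 (0.45), which fell in siTIP60. ATF5 lost its call without siTIP60 replicate 1, siTIP60 replicate 2 or siMRGBP replicate 2, with adjusted p from 0.0726 to 0.119.

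**Figure D4:**
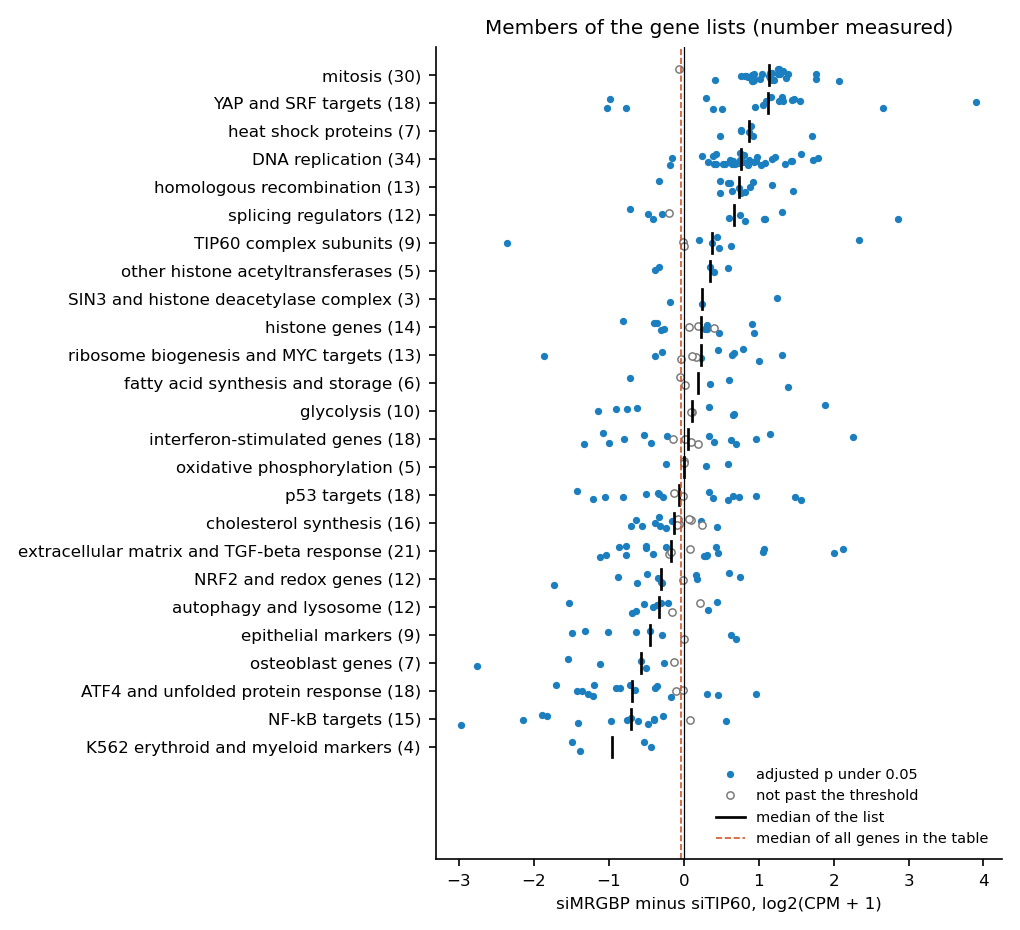
Difference between siMRGBP and siTIP60 in log2(CPM + 1) for each measured member of the 25 gene lists with at least 3 measured members, with filled points past the threshold, open points not, a black bar at each list's median and a dashed line at the median of all genes. Mitosis, YAP and SRF, heat shock and replication lists lie to the right, and NF-kB, ATF4 and osteoblast lists to the left.

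A set of genes left the control level in opposite directions. The 8 with the largest smaller change in each sense were taken by rule from genes past the threshold in all 3 contrasts, so the order of their groups is given by the choice. Among those up in siMRGBP and down in siTIP60 was NPPB, the precursor of B-type natriuretic peptide, with 3.78 and 3.20 CPM in siLuc, 16.4 and 12.7 CPM in siMRGBP and 0.166 and 0.148 CPM in siTIP60 (direct difference 3.74 ± 0.12). PTBP2, the neuronal paralog of the splicing repressor PTBP1, had 67.0 and 69.8 CPM in siLuc, 179 and 164 CPM in siMRGBP and 22.9 and 22.6 CPM in siTIP60 (2.85 ± 0.06). PTBP1 itself, which represses PTBP2 splicing, had 445 and 400 CPM in siLuc, 262 and 292 CPM in siMRGBP and 446 and 463 CPM in siTIP60 (-0.72 ± 0.08, adjusted p = 2.13e-06). The other genes of this set were TPM4, the focal adhesion protein gene LPP (2.43 ± 0.07), PALM2 (2.92 ± 0.09), the magnesium transporter gene NIPAL4 (2.84 ± 0.10), the GTPase gene RAB38 (2.29 ± 0.13) and the ubiquitin ligase gene TRIM58 (2.12 ± 0.08).

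In the opposite sense MMP9, a secreted gelatinase, had 63.0 and 52.4 CPM in siLuc, 20.3 and 23.6 CPM in siMRGBP and 402 and 378 CPM in siTIP60 (-4.09 ± 0.09, adjusted p = 1.95e-11), 17.8-fold on mean CPM. PDGFRB, a growth factor receptor of mesenchymal cells, had 94.2 and 87.7 CPM in siLuc, 21.7 and 29.8 CPM in siMRGBP and 216 and 206 CPM in siTIP60 (-3.00 ± 0.11). HHIP, a decoy receptor for Hedgehog ligands, had 18.8 and 21.2 CPM, 8.65 and 10.1 CPM, and 87.4 and 88.7 CPM in the same order (-3.10 ± 0.10). The rest were WISP1, a matricellular protein of Wnt signalling (-2.71 ± 0.13), the netrin receptor gene UNC5B (-2.35 ± 0.10), C9orf84 (-2.86 ± 0.16), AC006262.5 (-2.49 ± 0.09) and ITGB2 (-2.13 ± 0.14). ITGB2, the beta-2 integrin chain of leukocytes, had 15.7 and 12.2 CPM in siTIP60 replicates 1 and 2, and its difference was -1.96 without replicate 1.

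**Figure D5:**
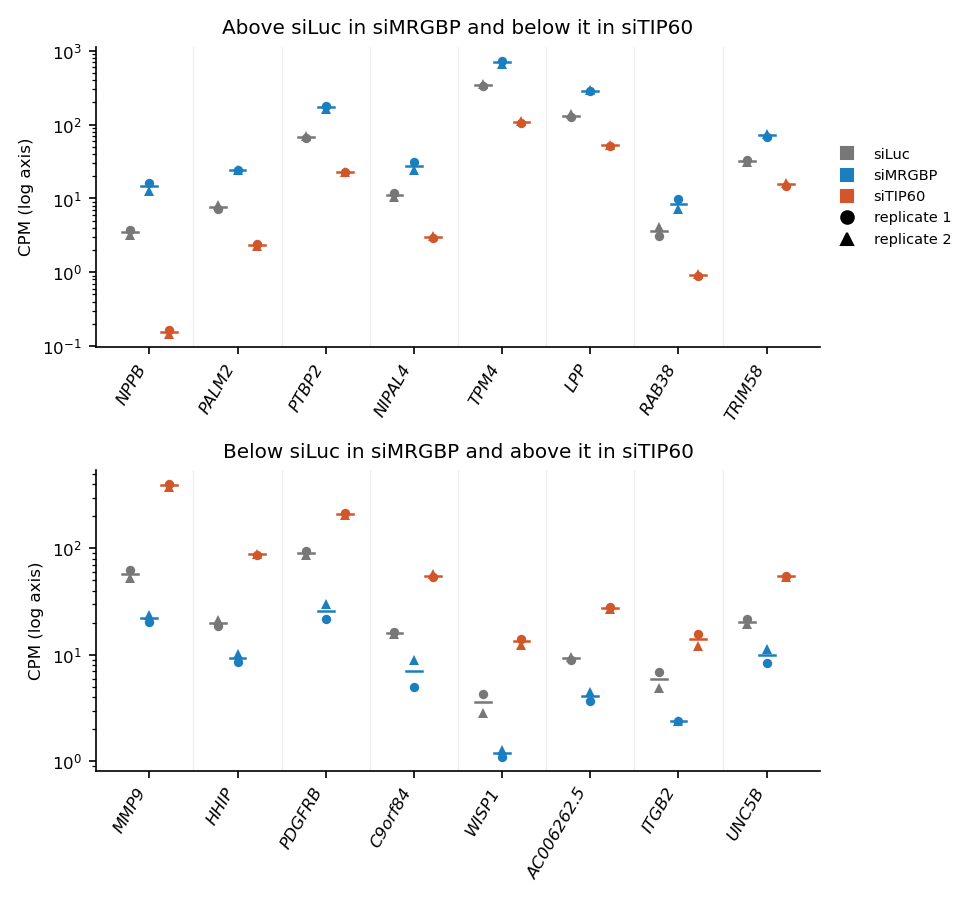
CPM on log axes of the 16 genes that left the siLuc level in opposite directions, in the 2 siLuc, 2 siMRGBP and 2 siTIP60 libraries, with bars at group means. The upper row has siMRGBP above and siTIP60 below siLuc, and the lower row the reverse, an order that follows from how the genes were chosen.

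The other largest differences were ranked by the comparison itself and are given as descriptions. EGF, the epidermal growth factor gene, had 4.45 and 4.21 CPM in siLuc, 48.6 and 41.8 CPM in siMRGBP and 4.12 and 4.63 CPM in siTIP60 (3.10 ± 0.09). EPPK1, a cytoskeletal linker, had 0.924 and 0.583 CPM, 12.9 and 18.5 CPM, and 1.76 and 1.39 CPM in that order (2.68 ± 0.15). STMN2, a microtubule regulator of neurons, rose to 10.1 and 8.78 CPM in siMRGBP against 0.875 and 1.01 CPM in siTIP60 (2.43 ± 0.09), and CSRP1, an actin-bundling LIM protein, had 558 and 400 CPM against 89.5 and 90.2 CPM (2.38 ± 0.13). TMTC3 and FAM111B fell in siTIP60. TMTC3, a mannosyltransferase gene, had 112 and 129 CPM in siLuc, 112 and 105 CPM in siMRGBP and 15.2 and 17.6 CPM in siTIP60 (2.66 ± 0.08), and FAM111B, a protease gene, 91.5 and 81.9 CPM in siLuc and 39.3 and 47.5 CPM in siMRGBP against 5.37 and 6.59 CPM (2.67 ± 0.11).

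On the siTIP60 side PLCH1, a phospholipase C that makes second messengers, had 2.64 and 2.70 CPM in siLuc, 2.50 and 3.27 CPM in siMRGBP and 66.3 and 72.4 CPM in siTIP60 (-4.19 ± 0.11), 24.1-fold on mean CPM. CST5, a cystatin protease inhibitor, had 14.7 and 11.9 CPM in siTIP60 against 0.140 and 0.122 CPM in siMRGBP, and SAA1, an acute phase protein, 12.03 and 13.73 CPM against 0.506 and 0.312 CPM. SIGLEC15, a sialic acid-binding receptor known from osteoclasts, had 13.8 and 13.5 CPM against 0.262 and 0.393 CPM. NLRP10 (-3.50 ± 0.12) and the G protein signalling regulator RGS16 (-2.90 ± 0.11) were also among the 15 largest. The remaining places went to RNA28S5 (-3.70 ± 0.67), AC079949.1 (-3.52 ± 0.79), AL161626.1 (-3.41 ± 0.70) and RNA45S5 (-3.15 ± 0.76), whose 2 siTIP60 libraries lay far apart. Without siTIP60 replicate 1 these 4 differences were -2.45, -1.93, -1.95 and -1.63 and passed the threshold.

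By CPM, the large differences towards siMRGBP beside ACTG1 and CYR61 included TUBB, a beta-tubulin (2843 and 2719 CPM against 1141 and 1161 CPM), and the adaptor protein gene YWHAZ (1723 and 1694 CPM against 439 and 479.7 CPM). TUBB was the highest gene of siLuc replicate 2, at 3508 CPM, above both siMRGBP libraries. Towards siTIP60 they were fibronectin FN1, with 1821 and 2209 CPM in siMRGBP and 4101 and 4138 CPM in siTIP60 (-1.04 ± 0.10), and RP3-410C9.1, MIR3648, AC079949.1 and AL161626.1. MIR3648 had 916 and 1417 CPM in siMRGBP and 3392 and 3315 CPM in siTIP60, and the siLuc libraries had 1309.5 and 295 CPM. Its difference of -1.56 ± 0.47 became -1.24 (adjusted p = 0.0782) without siMRGBP replicate 1.

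Some genes moved strongly and to nearly the same level in both knockdowns. They were taken by rule where both changes against siLuc passed the threshold with a log2 change of at least 1 and the 95% interval of the direct difference lay within -0.3 to 0.3. SLC7A11, the cystine transporter, had 43.9 and 57.4 CPM in siLuc, 227 and 221 CPM in siMRGBP and 219 and 234 CPM in siTIP60. The receptor kinase gene MET had 60.03 and 62.19 CPM, 233 and 226 CPM, and 225 and 247 CPM, in that order. Paxillin PXN and the diacylglycerol kinase gene DGKI were also among the 5 taken from those that rose. The 5 taken among those that fell were GPR3, the dopamine receptor gene DRD1, C10orf114, the collagen gene COL3A1 and ID1, an inhibitor of differentiation factors. GPR3, a receptor that raises cAMP, had 23.9 and 26.8 CPM in siLuc, 4.94 and 5.15 CPM in siMRGBP and 4.92 and 4.63 CPM in siTIP60.

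p53 targets split evenly. Of 18 measured members 8 were higher in siMRGBP, 8 higher in siTIP60 and 2 did not pass the test, with a median of -0.07. That is 44.4% each way, against 34.8% of all genes higher in siMRGBP and 39.6% higher in siTIP60. CDKN1A, the p21 inhibitor of cell cycle kinases, rose in both, from 228 and 260 CPM in siLuc to 619 and 516 CPM in siMRGBP and 635 and 600 CPM in siTIP60, and its direct difference was -0.13 ± 0.09 (adjusted p = 0.205). BTG2, an antiproliferative gene, had 128 and 118 CPM in siMRGBP and 41.2 and 40.5 CPM in siTIP60 (1.57 ± 0.06). GDF15, a stress cytokine, had 4.98 and 5.01 CPM against 15.7 and 14.6 CPM (-1.43 ± 0.09). Metabolic members went both ways, with C12orf5 (TIGAR) higher in siMRGBP by 1.48 ± 0.07 and SESN2 lower by 1.21 ± 0.06.

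Osteoblast genes leaned to siTIP60: of 7 measured members 6 were higher there, none was higher in siMRGBP, and the median was -0.57. Against siLuc the list went both ways, with 2 higher and 3 lower in siMRGBP and 4 higher and 2 lower in siTIP60. The summed level was 2545.6 and 2025.3 CPM in siLuc, 1213 and 1468 CPM in siMRGBP and 2432.5 and 2322.7 CPM in siTIP60. TNFRSF11B, osteoprotegerin, had 60.04 and 69.41 CPM in siLuc, 77.7 and 78.3 CPM in siMRGBP and 571 and 503 CPM in siTIP60 (-2.77 ± 0.08, adjusted p = 6.90e-11). RUNX2 had 39.1 and 42.8 CPM in siMRGBP and 124 and 118 CPM in siTIP60 (-1.54 ± 0.06). ALPL, alkaline phosphatase, rose in both, from 18.8 and 17.0 CPM to 99.8 and 77.3 CPM and to 103 and 108 CPM. Its direct difference of -0.26 lost its call without siTIP60 replicate 1, siTIP60 replicate 2 or siMRGBP replicate 2, with adjusted p from 0.0627 to 0.394. Of 9 measured epithelial markers 6 were higher in siTIP60 and 2 in siMRGBP. CDH1, E-cadherin, had 2.174 and 1.972 CPM in siLuc, 5.31 and 5.84 CPM in siMRGBP and 15.7 and 15.2 CPM in siTIP60 (-1.32 ± 0.08), whereas the junction gene CLDN4 had 73.2 and 64.3 CPM in siMRGBP against 44.5 and 43.8 CPM (0.62 ± 0.09).

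Matrix genes divided by gene. Of 21 measured members 9 (42.9%) were higher on each side, against 34.8% of all genes higher in siMRGBP and 39.6% higher in siTIP60. Versican VCAN had 1.901 and 2.1704 CPM in siLuc, 22.8 and 17.7 CPM in siMRGBP and 4.34 and 3.35 CPM in siTIP60 (2.13 ± 0.14), and the crosslinking enzyme LOXL2 72.5 and 82.0 CPM in siMRGBP against 19.0 and 17.8 CPM in siTIP60 (2.01 ± 0.10). TGFBI had 123 and 111 CPM against 256 and 254 CPM (-1.12 ± 0.09) and the inhibitory signal protein gene SMAD7 23.4 and 24.5 CPM against 42.5 and 40.9 CPM (-0.78 ± 0.07). Interferon-stimulated genes gave 7 (38.9%) on each side of 18 measured, near the shares over all genes. The antiviral sensor gene DDX58 had 13.4 and 12.3 CPM in siLuc, 75.6 and 69.4 CPM in siMRGBP and 29.98 and 33.99 CPM in siTIP60 (1.16 ± 0.08), and GBP1, a guanylate-binding protein, 15.7 and 14.3 CPM against 2.34 and 2.31 CPM (2.26 ± 0.09). IFI44 had 3.37 and 3.54 CPM against 9.41 and 11.1 CPM (-1.33 ± 0.10).

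Splicing regulators gave 7 of 12 higher in siMRGBP and 4 lower, with a median of 0.67. SRSF4 had 73.0 and 75.7 CPM against 28.8 and 29.9 CPM (1.31 ± 0.06) and MBNL1 205 and 222 CPM against 94.9 and 106 CPM (1.08 ± 0.07). Histone genes gave 6 higher in siMRGBP, 5 lower and 3 not past the test of 14, in poly(A)-selected RNA and with near-identical copies among them. These histone shares were 42.9% higher and 35.7% lower, against 34.8% and 39.6% of all genes. H2AFX, the histone variant phosphorylated at DNA breaks, had 308 and 229 CPM in siLuc, 44.5 and 46.5 CPM in siMRGBP and 62.6 and 58.2 CPM in siTIP60 (-0.40 ± 0.10, adjusted p = 3.61e-03). The count of lower histone genes was 3 without siTIP60 replicate 1 and also with TMM scaling, and that of higher ones was 3 without siTIP60 replicate 2. Of the other lists, ribosome biogenesis and MYC targets gave 7 higher in siMRGBP and 3 lower of 13, cholesterol synthesis 2 and 8 of 16, autophagy and lysosome 2 and 8 of 12, NRF2 and redox genes 4 and 7 of 12, glycolysis 4 and 4 of 10, fatty acid synthesis and storage 3 and 1 of 6, oxidative phosphorylation 2 and 1 of 5, other histone acetyltransferases 3 and 2 of 5, the SIN3 complex 2 and 1 of 3, and cytosolic ribosomal proteins 0 and 1 of 1. Of 4 measured erythroid and myeloid markers, listed because the K562 leukaemia line is in the series, all were higher in siTIP60. Their summed level was low: 17.9 and 8.21 CPM in siTIP60 replicates 1 and 2, 3.86 and 4.53 CPM in siMRGBP and 3.27 and 3.26 CPM in siLuc. HBA1, described above for siTIP60 replicate 1, is in this list, and the part of that library's leukocyte signal was not tested. Single libraries decided several of these small counts. Without siTIP60 replicate 1, 2 NRF2 and redox genes and 1 SIN3 gene were higher in siMRGBP, and 1 other acetyltransferase, 2 K562 markers and no SIN3 or oxidative phosphorylation gene were lower. Without siTIP60 replicate 2, 2 NRF2 and redox genes were higher and no SIN3 gene was lower. Without siMRGBP replicate 1, 1 cholesterol gene was higher, and 2 K562 markers and no SIN3 gene were lower. Without siMRGBP replicate 2, 1 SIN3 gene was higher, and 2 fatty acid genes and no SIN3 or oxidative phosphorylation gene were lower. With TMM scaling no SIN3 or oxidative phosphorylation gene was lower. Some genes stand in more than 1 list.

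Within those lists single genes stood out. PGAM1, a glycolytic mutase, had 197 and 170 CPM in siMRGBP and 49.0 and 48.7 CPM in siTIP60 (1.88 ± 0.07), and the glucose transporter gene SLC2A3 62.5 and 64.3 CPM against 147 and 136 CPM (-1.14 ± 0.08). MXD4, an antagonist of MYC, had 5.64 and 6.49 CPM against 25.4 and 24.2 CPM (-1.87 ± 0.09). TXNIP, the thioredoxin inhibitor, had 10.4 and 8.01 CPM against 35.8 and 29.9 CPM (-1.74 ± 0.11). WIPI1, an autophagosome protein, had 11.5 and 12.2 CPM against 36.5 and 36.1 CPM (-1.54 ± 0.08), and the desaturase FADS1 148 and 161 CPM against 55.4 and 61.0 CPM (1.39 ± 0.06). NDUFA4, a respiratory chain subunit, fell in both and its libraries overlapped: 159 and 273 CPM in siLuc, 30.9 and 23.2 CPM in siMRGBP and 26.8 and 26.5 CPM in siTIP60.

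The authors' deposited table of transcripts marks each transcript as up or down between the same groups. In the authors' deposited table, transcripts marked up numbered 4133 and those marked down 3398 in siMRGBP against siTIP60. KAT5 had 5 of 8 transcripts marked up and MRGBP its 1 transcript marked down in the authors' deposited table, so up means higher in siMRGBP. Of 1278 genes of the CPM table with up marks alone in the authors' deposited table, 1171 were higher in siMRGBP past the threshold, and of 1227 with down marks alone 1116 were lower. The marks and the CPM values describe the same groups, and the CPM sheet is named for significant genes. This overlap is therefore no independent support. A further 337 genes carried marks in both directions in the authors' deposited table. Only DDR1 and DST had at least 3 marks each way and were chosen after the values were seen: the collagen receptor gene DDR1 had 5 up and 3 down of 20 transcripts in the authors' deposited table, and DST, a cytoskeletal linker, 3 up and 4 down of 14. PTBP2 had all 5 of its transcripts and LPP all 7 marked up in the authors' deposited table. Of the 137 genes marked both ways that were also in the CPM table, 15 did not pass the threshold there. Of all 8808 genes 74.4% passed it, so failing it was no more common among these genes.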

How the data were processed

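RNA of 12 U2OS libraries was measured, 2 in each of 6 groups, and grouped by the labels. The authors deposited CPM values (read counts scaled to library size) per gene for genes that the name of the deposited sheet calls significant. How they were selected is not given in the sources used here. MACS2 2.0.10, Bowtie2 2.1.6, Subread 2.0.0 with featureCounts, minimap2 2.17-r941 and the build hg19 are listed without roles, per the submitters' processing notes. The authors also deposited a table of marks, scored 0 or 1 per transcript, whose headers end in 2-0 without a stated meaning. Whether reads were counted by strand is not given in the sources used here, so overlapping antisense genes cannot be told apart.

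From 8813 rows 5 repeats were removed. Another 15 names had been altered by spreadsheet software: they were tested but are not named. Values were taken as log2(CPM + 1) with no further filter. limma 3.58.1 in R 4.3.3 was fitted with an intensity trend to 6 group means over the 12 libraries (residual df 6), with Benjamini-Hochberg adjustment over all 8808 genes and a threshold of 0.05. Log2 differences are on the log2(CPM + 1) scale, which understates the change of low genes. All of the deposited CPM values came out as whole reads (100% within 0.01 reads) once each library's value of 1 read was recovered. On those reads edgeR 4.0.16 (quasi-likelihood) called 6553 genes and DESeq2 1.42.0 called 6287. The scripts were tested on simulated data.

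Genes were named by these rules: the targets and measured complex members, the 15 largest differences each way without overlap, the 5 largest CPM differences each way at least 2-fold apart, 8 opposite genes each way, 5 alike genes each way, and up to 5 members of each list by smallest adjusted p plus defining members. Other members named are the exceptions within a list. Some genes that these rules name are not reported here. The comparison, the 26 gene lists and the named genes were chosen with earlier results of these data known. Of 8808 names 7318 matched a current or older symbol. Promoters are from RefSeq (GRCh38.p14) and motifs were searched on both strands, CArG as CC, 6 bases of A or T, then GG. Same-numbered libraries of siMRGBP and siTIP60 did not deviate together (correlation -0.02), so numbers were not taken as pairs. Pseudocount, filter, scaling, model, tool and left-out libraries were varied. ChIP samples were not analysed here.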

Additional observations from a re-analysis of the deposited data

How the results depend on the processing

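With 2 libraries per group each value rests on few samples, and a lone library left in a group was assumed to vary like the others. The count of 6554 genes was 4082 with a filter on a mean of at least 5 CPM, 1779 of them lower in siMRGBP and 2303 higher. Fewer genes were tested there, the 3156 from 5 to 50 CPM and the 1759 at 50 CPM and above. The larger side turned with this filter. With the same filter the counts against siLuc were 3652 for siMRGBP and 4206 for siTIP60. Leaving out a library of either group lowered the count of genes called in each of the 3 contrasts. The count of list members called in the direct comparison, 283 in the main fit, also fell. Scaling turned the larger side too: 3328 genes were higher and 3210 lower with TMM factors, and 3312 and 3239 with median-of-ratios factors. The counts at least 2-fold apart, 686 and 731, were added after seeing the data. They were 890 and 1200 with a pseudocount of 0.25, 449 and 292 with 5, 626 and 419 with the filter, 1053 and 1430 by edgeR and 1056 and 1434 by DESeq2. The replicate block gave 6469, 5629 and 6869 genes for the 3 contrasts. It moved 2 list counts by over 1.5 times, NRF2 and redox genes higher in siMRGBP from 4 to 2 and DNA replication genes lower from 2 to 0. For siMRGBP against siLuc, whose numbered libraries deviated in opposite directions (correlation -0.47), a crossed block gave 5743. Of 338 called genes among the 387 followed, 286 kept the call under every alternative that gave a value and 52 lost it under at least 1. CSF3R, a leukocyte gene, turned from -1.22 to 0.0188 without siTIP60 replicate 1 and was -2.46 without siTIP60 replicate 2.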
